A study of Mus musculus with 24 samples.

Results

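The comparison called TvC here set the kidneys of mice given berberine and cisplatin (TG) against untreated control kidneys. Its members were the m6A peak lists of 4 TG and 4 control kidneys, 8 of the 12 kidneys with a peak list, and they were chosen by the group in the sample labels. All mice were male C57BL/6 animals of 8 weeks. TG mice received berberine at 20 mg/kg per day by intraperitoneal injection for 14 days and then cisplatin at 20 mg/kg intravenously. Control mice received saline and vehicle by the same routes, and kidneys were collected 72 h after the last injection. The remaining 4 kidneys came from the injury group (IG), which received saline and then the same cisplatin dose. They are given beside TvC as reference values. No group received berberine without cisplatin, so an effect of berberine on its own was not measured. The comparison asks which m6A sites still differed from the untreated kidney when berberine had preceded cisplatin.

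N6-methyladenosine (m6A) is the most common internal modification of mRNA. A writer complex built around Mettl3 and Mettl14 places it, Fto and Alkbh5 remove it, and readers such as the Ythdf proteins bind it and influence how the mRNA is translated and degraded. The mark sits mostly in long exons and around stop codons, at a short consensus with an adenosine before a cytosine. Cisplatin crosslinks DNA and injures the tubules of the kidney, above all the proximal tubule. In MeRIP-seq, fragmented mRNA is pulled down with an antibody against m6A and regions with more reads than expected are called as peaks. Each deposited list gives the positions of the peaks of 1 kidney with a score, the negative log10 of the peak's p-value times 10. The score ranks how clearly a peak was called and is not a level of methylation. In the 8 lists there are 61326 peaks, and the lowest score is 13.0. Counts of reads are not part of the lists, which leaves the sequencing depth of each kidney unknown. A peak can be missing because the site was not methylated, because the mRNA was scarce or because the peak missed the calling threshold. In whole kidney, fewer cells of a type and less RNA per cell cannot be told apart.

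Peaks that overlapped by at least 1 bp in any of the 8 kidneys were joined into 15171 loci, which lay in 7083 of 21866 protein-coding genes (293 loci had no such gene). A locus is called lost when it had a peak in 4 of 4 control kidneys and 0 of 4 TG kidneys, and gained in the opposite case. TvC gave 565 lost loci in 515 genes, 3.72% of all loci, and 151 gained loci in 135 genes, 0.995% of all loci. The best-scoring lost loci lay in Tmem252, Tgoln1 and Bcl2l1, the gene of the anti-apoptotic protein Bcl-xL. The best-scoring gained locus lay in Hnrnpk, which encodes an RNA-binding protein of the nucleus. It was followed by Gm10717, Dag1, the gene of dystroglycan, BC061237, Gm10719 and Serpina3n, a secreted serine protease inhibitor of the acute phase response. At most lost loci few or no IG kidneys had a peak, and at most gained loci at least 3 IG kidneys had one.

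The short exons that carried such peaks are shown first, because they show how the loci look at the level of sequence. All are coding, read 5′ to 3′ on the strand of the gene from the GRCm38 genome of RefSeq, and capitals mark GGACT or GGACA or GGACC, forms of the m6A consensus that were searched as written. Exons of Msh3, a DNA mismatch repair gene, of Erc2, which encodes a scaffold protein of the presynaptic zone, and of Alkbh5, an m6A demethylase, were lost loci and hold at least 1 of these motifs. With every list shortened to the length of the shortest, which is called equal lists here, Msh3 exon 21 and Erc2 exon 8 kept the call, and Msh3 exon 20, Erc2 exon 10 and Alkbh5 exon 2 did not.
Msh3 exon 20, chr13:92235574-92235731, minus strand: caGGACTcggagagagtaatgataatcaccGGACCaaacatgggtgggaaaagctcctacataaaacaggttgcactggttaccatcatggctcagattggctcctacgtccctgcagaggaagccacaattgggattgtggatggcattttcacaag
Msh3 exon 21, chr13:92223110-92223296, minus strand: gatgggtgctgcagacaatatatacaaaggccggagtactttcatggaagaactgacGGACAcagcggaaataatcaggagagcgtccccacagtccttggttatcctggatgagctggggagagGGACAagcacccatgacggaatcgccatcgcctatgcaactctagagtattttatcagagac
Erc2 exon 8, chr14:28011636-28011773, plus strand: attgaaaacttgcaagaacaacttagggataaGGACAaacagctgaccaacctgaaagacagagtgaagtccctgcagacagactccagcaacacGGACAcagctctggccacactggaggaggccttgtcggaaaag
Erc2 exon 10, chr14:28025033-28025173, plus strand: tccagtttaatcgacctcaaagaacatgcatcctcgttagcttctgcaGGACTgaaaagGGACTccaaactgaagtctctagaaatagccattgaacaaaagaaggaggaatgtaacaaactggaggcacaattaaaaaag
Alkbh5 exon 2, chr11:60547688-60547768, plus strand: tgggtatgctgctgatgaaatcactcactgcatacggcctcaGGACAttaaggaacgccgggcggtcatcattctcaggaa

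Other lost exons hold none of the 3 motifs on the gene's strand. Among them are exon 11 of App, the gene of the amyloid precursor protein, and exons 24 and 25 of Kif20b, which encodes a kinesin of dividing cells. All 3 kept the call with equal lists.
App exon 11, chr16:85024853-85025011, minus strand: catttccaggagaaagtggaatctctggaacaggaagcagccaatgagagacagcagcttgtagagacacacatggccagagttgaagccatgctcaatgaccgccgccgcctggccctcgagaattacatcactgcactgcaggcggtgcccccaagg
Kif20b exon 24, chr19:34957417-34957544, plus strand: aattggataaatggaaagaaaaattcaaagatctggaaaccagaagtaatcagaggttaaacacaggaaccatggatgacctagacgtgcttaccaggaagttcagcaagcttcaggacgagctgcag
Kif20b exon 25, chr19:34959416-34959571, plus strand: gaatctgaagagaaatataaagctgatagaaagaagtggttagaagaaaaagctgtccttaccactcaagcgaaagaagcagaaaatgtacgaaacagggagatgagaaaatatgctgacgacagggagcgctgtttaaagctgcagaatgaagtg

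In Cars, the gene of cysteinyl-tRNA synthetase, 2 neighbouring exons went in opposite directions. Exon 21 was lost and exon 22 was gained, and only exon 22 kept its call with equal lists.
Cars exon 21, chr7:143559649-143559708, minus strand: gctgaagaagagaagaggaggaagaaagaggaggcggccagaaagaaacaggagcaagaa
Cars exon 22, chr7:143559128-143559211, minus strand: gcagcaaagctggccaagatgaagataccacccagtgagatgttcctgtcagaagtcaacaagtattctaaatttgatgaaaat

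The gained exon of Hnrnpk, the highest-scoring gained locus, occurred 2 times in the chromosomes of GRCm38, in the gene and as an exact copy at chr7:83755962-83756059. Gained exons of BC061237, Gm3486 and Gm3543 on chromosome 14 are copies of each other. Exon 2 of Gm3486 and Gm3543 was 100% identical and differed from that of BC061237 at 4 of 157 bases (97.5% identity).
Hnrnpk exon 5, chr13:58399893-58399990, minus strand: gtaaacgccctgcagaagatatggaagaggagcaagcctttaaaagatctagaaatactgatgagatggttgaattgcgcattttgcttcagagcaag
BC061237 exon 2, chr14:44501162-44501318, plus strand: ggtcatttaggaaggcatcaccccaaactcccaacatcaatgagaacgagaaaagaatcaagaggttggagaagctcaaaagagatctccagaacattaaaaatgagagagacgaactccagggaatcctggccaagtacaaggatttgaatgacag
Gm3486 exon 2, chr14:41488305-41488461, minus strand: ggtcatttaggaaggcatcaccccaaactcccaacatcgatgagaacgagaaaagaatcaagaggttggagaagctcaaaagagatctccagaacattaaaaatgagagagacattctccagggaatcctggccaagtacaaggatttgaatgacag
Gm3543 exon 2, chr14:41982134-41982290, minus strand: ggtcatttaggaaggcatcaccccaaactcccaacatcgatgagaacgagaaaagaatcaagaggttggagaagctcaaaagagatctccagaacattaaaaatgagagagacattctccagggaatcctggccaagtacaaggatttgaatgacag

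The motif search over both strands gives these sequences a scale. Among coding loci of at most 300 bp, 2234 of 6205 (36.0%) held 1 of the 3 motifs on the gene's strand. The share was 75 of 184 (40.8%) for lost and 12 of 35 (34.3%) for gained loci. Per kb of all loci, motifs on the gene's strand numbered 4.25 in lost loci, 4.03 in gained loci and 3.83 in all loci, against 3.29, 3.09 and 2.98 on the opposite strand.

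TG kidneys had shorter peak lists than control kidneys. The lists held 8712, 8531, 8986 and 9579 peaks in the control kidneys and 6588, 6276, 5901 and 6753 in the TG kidneys. Every TG kidney lay below every control kidney, with means of 6379.5 ± 375 and 8952 ± 458 peaks (SD, n = 4 each) which differ by -2572.5 (exact permutation test, two-sided, p = 0.0286). No smaller p is possible with 4 kidneys against 4. The lists of the IG kidneys held 7135, 7450, 8357 and 6745 peaks. Peaks lay in 3755 ± 222 genes per TG kidney and 4873 ± 161 genes per control kidney (SD, n = 4 each), which is -1118 genes (exact permutation test, two-sided, p = 0.0286). With each list shortened to its 5901 highest-scoring peaks, the difference in genes was -89 (exact permutation test, p = 0.0857).

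**Figure D1:**
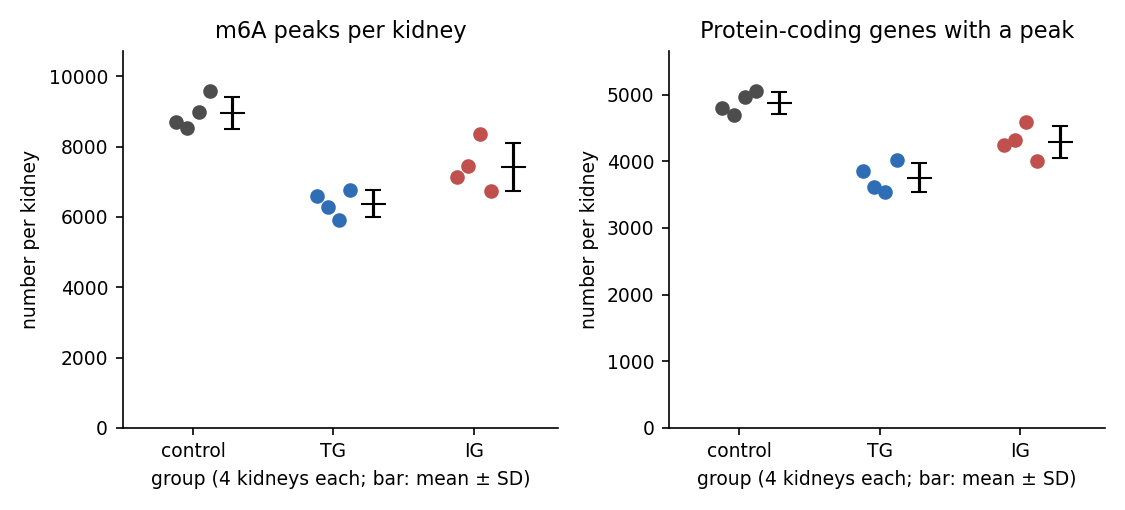
Number of m6A peaks (left) and of protein-coding genes with a peak (right) in each kidney of the control, TG and IG groups, with the mean ± SD of 4 kidneys as bars. The TG lists hold 5901 to 6753 peaks and lie below the control lists, which hold 8531 to 9579.

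No difference in the position of peaks along the mRNA was detected. The coding sequence (CDS) held 63.4 ± 2.09% of TG peaks and 62.5 ± 1.20% of control peaks, and the stop codon segment 12.9 ± 0.738% and 13.1 ± 0.381% (SD, n = 4 kidneys each). In the two-sided exact permutation test none of 5 segments passed (adjusted p from 0.679 to 0.686), though a p that misses the threshold does not show that the shares were equal. Kidneys resembled their own group more. Of the loci with a peak in at least 1 kidney of a pair, 55.6% were common to both in TG pairs, 60.9% in control pairs and 46.0% in pairs of a TG and a control kidney. The within-group excess was 12.2 percentage points (exact permutation test over 70 arrangements, p = 0.0286).

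All 8 kidneys shared 2823 loci (18.6%). Just outside the calls lay 495 loci with a peak in 4 control kidneys and 1 TG kidney, 751 with 3 and 0, 70 with 1 control and 4 TG kidneys, and 208 with 0 and 3. A pattern of 4 of 4 against 0 of 4 gives a Fisher's exact p of 0.0286 at a single locus, the only pattern under 0.05. After Benjamini-Hochberg adjustment 0 of 15171 loci passed (lowest adjusted p = 0.605 by Fisher's exact test), against 716 at an unadjusted p under 0.05, so single loci below are descriptions of these 8 kidneys. Of the 716 called loci 78.9% were lost. The split moved with list length. With equal lists there were 202 lost and 244 gained loci, 54.7% of them gained. Of the lost loci 180 (31.9%) and of the gained loci 123 (81.5%) were called also with equal lists. The cut to 5901 peaks takes more from the control lists (8531 to 9579 peaks) than from the TG lists (5901 to 6753). By construction it ends lost calls more than gained ones, and a locus can become gained when its control peaks are cut.

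**Figure D2:**
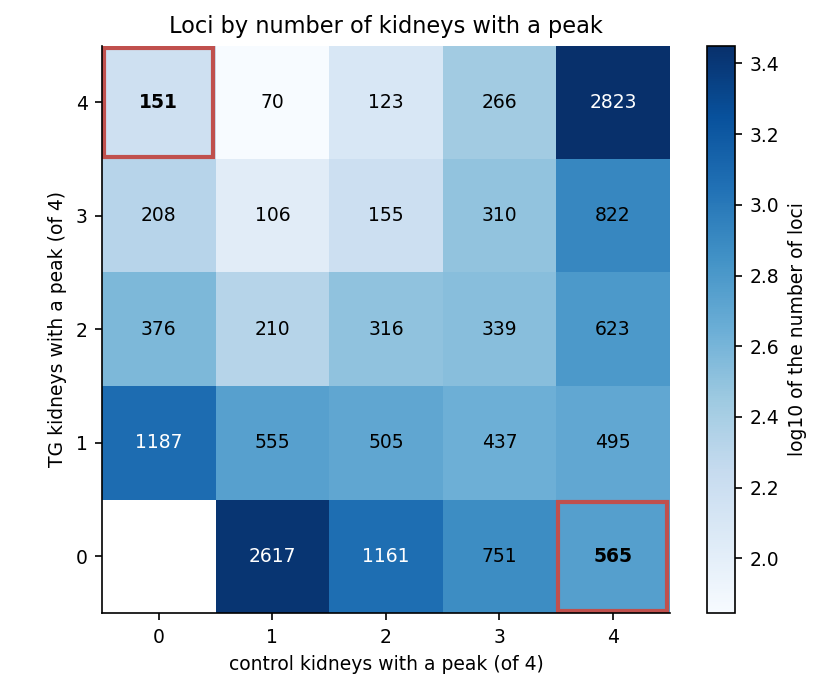
Number of loci for each combination of control kidneys (x axis) and TG kidneys (y axis) with a peak, coloured by the log10 of the number. The framed cells are the 565 lost and 151 gained loci, and the cell for 4 and 4 kidneys holds 2823 loci.

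Counted over whole genes, 313 genes (4.42%) had a peak in every control kidney and in no TG kidney, and 105 genes (1.48%) had the opposite pattern. With equal lists the balance turned to 133 and 162 genes. By Fisher's exact test 0 of 7083 genes passed the adjustment (lowest adjusted p = 0.484), against 418 at an unadjusted p under 0.05. Of the 515 genes with a lost locus, 281 had no peak in any TG kidney at any locus. Of the 135 genes with a gained locus, 98 had no peak in any control kidney. Of 561 lost loci with a gene, 140 lay in a gene that kept a peak at another locus in 4 of 4 TG kidneys (24.96%, Wilson 95% interval 21.6 to 28.7%, counting error only), against 46.1% of the 5264 loci with a peak in all control kidneys. The corresponding share for gained loci was 20 of 145 (13.8%), against 60.0% of the 3381 loci with a peak in all TG kidneys. With equal lists the share for lost loci was 12.4%. Called loci were also more often the only locus of their gene, at 34.0% of lost and 44.1% of gained loci against 25.7% of all loci, which lowers these shares by construction.

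Called loci had lower scores than other loci of the same group. The median of the mean scores was 63.9 at lost loci, against 153 at all loci with a peak in 4 control kidneys. It was 71.6 at gained loci, against 156 at all loci with a peak in 4 TG kidneys. Loci with a peak in 4 control kidneys were split by mean score into 4 classes of about equal size, from low to high scores, and 24.8%, 10.3%, 5.18% and 2.18% of these classes were lost. Among loci with a peak in 4 TG kidneys, split in the same way, 9.21%, 3.85%, 2.68% and 1.86% were gained. Called loci were also long, with medians of 560 bp for lost and 702 bp for gained loci, against 294 bp for all loci and 374 bp for those in all 8 kidneys. They covered a whole exon in 65.2% of lost, 50.3% of gained and 65.8% of all loci. The median GC content was 51.7% in lost, 48.8% in gained and 48.9% in all loci. Among lost loci with a segment 57.3% were in the CDS, 15.1% in the stop codon segment and 15.1% in the 3′ UTR, against 58.9%, 13.1% and 13.0% of all loci. For gained loci these shares were 49.3%, 19.4% and 16.4%.

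The lost locus with the highest mean score lay in the last exon of Tmem252, a small transmembrane protein, at chr19:24677536-24678853. Its scores in control kidneys 1 to 4 were 2648, 3100, 3100 and 2540 (a value of exactly 3100 recurs in every list, at 66 to 116 peaks). No TG or IG kidney had a peak at this locus. Tgoln1, which encodes a protein of the trans-Golgi network, had scores of 1570, 3100, 2657 and 2518 in the control kidneys over exon 2, and again no TG or IG kidney had a peak. In Bcl2l1 the control scores were 925, 1274, 1201 and 2322 at chr2:152828898-152830102, in exon 2 of 3. The third IG kidney had a peak there with a score of 241, while the TG kidneys and the other IG kidneys had none.

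Genes of metabolism and transport were among the 12 named lost loci. Acot13, a mitochondrial acyl-CoA thioesterase, had control scores of 569, 706, 1469 and 356 in its last exon. Slc5a3, the cotransporter that takes up the osmolyte myo-inositol, had control scores of 627, 391, 163 and 1554 over its last exon. Neither locus had a peak in any TG or IG kidney. Slc6a15, a transporter of neutral amino acids, had control scores of 870, 893, 414 and 776 in exon 1, and scores of 16, 24.3 and 81.6 in IG kidneys 1, 3 and 4. All control scores of Slc6a15 thus lay above all its IG scores. Rpl29, a protein of the large ribosomal subunit, had control scores of 990.2, 466, 815 and 567 and a single IG peak with a score of 13.5.

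App kept a peak elsewhere in the gene. Exon 11, printed above, had control scores of 435, 869.8, 743 and 427, no TG peak, and IG scores of 34.1 and 161 in kidneys 2 and 3. Exon 17 was lost too, with 0 of 4 IG kidneys, while exon 9 had a peak in 4 of 4 kidneys of each group. Phrf1, which encodes a PHD and RING finger protein, had control scores of 985, 263, 971 and 944 in exon 14 and IG scores of 157, 1069 and 312 in kidneys 1, 2 and 4. Its second control kidney lay far below the other 3. Gvin1, an interferon-inducible GTPase, is the named lost locus at which every IG kidney had a peak. Its control scores were 432, 256, 340.2 and 1184 and its IG scores 525, 25.9, 249 and 260.5. Nepn and Mansc4 complete the 12 lost loci, with control scores of 558 to 949 and 309 to 972. Of the 12 lost loci 5 had no IG peak, 3 had 1, 1 had 2, 2 had 3 and 1 had 4.

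Several lost loci lay in a row in some genes. Of the 515 genes 37 had at least 2 lost loci, and Erc2 had the most with 6, followed by Kif20b with 5 and Msh3 and Bicc1 with 3 each. In Erc2 the lost loci were exons 7 to 12 of 16, and their mean scores in the control kidneys ran from 76.2 to 319. Exon 8 had control scores of 429, 282, 139 and 428, and exon 10 had 25.6, 80.1, 108 and 90.7. Exon 13 had a peak in 3 control kidneys, and exons 14 to 16 in 1 or 2. From exon 3 onward no TG or IG kidney had a peak in Erc2. In exon 2 the order was the other way, with a peak in 1 control, 2 TG and 4 IG kidneys.

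In Kif20b exons 18 and 23 to 26 of 32 were lost, with 0 of 4 IG kidneys at each. Exon 25 had control scores of 428, 594, 321 and 759, and exon 24 had 437, 177, 325 and 238. The longest locus, exon 19 of 1234 bp, had a peak in 4 control, 3 TG and 3 IG kidneys. In Msh3 the lost exons were 2, 20 and 21 of 24, and exons 22 and 23 had a peak in 2 and 3 control kidneys and in no TG or IG kidney. Control scores at exon 21 were 85.3, 50.9, 42.02 and 156. Bicc1, an RNA-binding protein whose loss causes cystic kidneys, lost exons 4, 15 and 17 of 21 but had a peak over exons 2 and 18 in all 8 kidneys. With equal lists 5 of the 6 lost loci of Erc2, all 5 of Kif20b, 2 of the 3 of Msh3 and 0 of the 3 of Bicc1 kept the call.

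**Figure D3:**
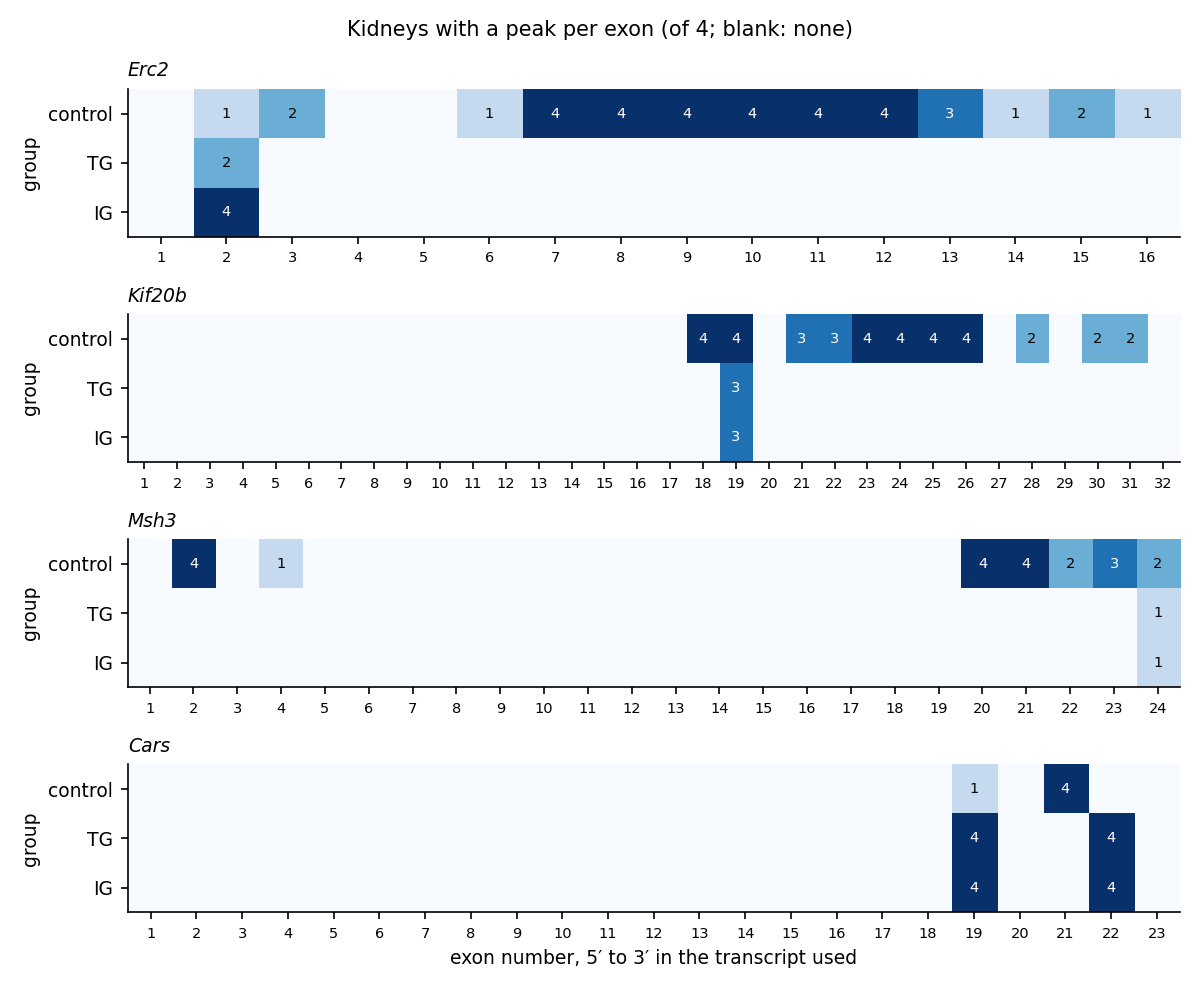
Number of kidneys with a peak, of 4 per group, in each exon of Erc2, Kif20b, Msh3 and Cars, with the exons numbered 5′ to 3′ on the x axis and the groups in rows. Exons 7 to 12 of Erc2 and 23 to 26 of Kif20b had a peak in 4 control kidneys and in no TG or IG kidney, and exons 21 and 22 of Cars went in opposite directions.

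Among genes with at least 2 gained loci, Insyn1, a component of inhibitory synapses, had both in TG and in every IG kidney. Slfn9, a schlafen family gene, had a gained locus in exon 5 with TG scores of 420, 581, 103 and 450 and a peak in all IG kidneys, and another in exon 2 with a peak in no IG kidney. Cars, Itih5 and Syne1 were the 3 genes with both a lost and a gained locus. At Cars exon 21 the control scores were 127, 38.0, 32.1 and 26.9, and no TG or IG kidney had a peak. At exon 22 the TG scores were 249, 90.8, 98.2 and 179.6, the IG scores 154, 98.2, 101 and 156, and no control kidney had a peak. The exons are 60 and 84 bp long. In Itih5, a heavy chain of the inter-alpha-trypsin inhibitors, exons 4 and 11 were lost and the last exon, 14, was gained in TG, and all IG kidneys had the gained peak. None of the 3 kept the call with equal lists. In Syne1, the gene of nesprin-1, exon 97 of 146 was gained and exon 34 lost, and no score at either exceeded 23.2.

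The gained locus with the highest mean score was exon 5 of Hnrnpk, with TG scores of 2230.3, 1526, 2544 and 2569. IG kidneys 1 to 3 had scores of 2409, 1995 and 2524, IG kidney 4 had no peak, and no control kidney had a peak anywhere in the gene. Because the sequence has an exact copy on chromosome 7, the gene of this peak is uncertain. Dag1 had TG scores of 703, 1036, 1134 and 1376 in exon 2 of 4, outside the coding sequence, and IG scores of 81.2, 908, 777 and 297. Its last exon had a peak in every TG and control kidney. Serpina3n had TG scores of 503.9, 286, 1079 and 1610.1 over exon 2 and IG scores of 1855, 1322, 449 and 980.6, and no control kidney had a peak in the gene. Scaf4, which takes part in ending transcription by RNA polymerase II, had TG scores of 643, 389, 369 and 1620.4 in its last exon and IG scores of 627, 1621, 548 and 983.

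Other gained loci lay in genes that had no peak in control kidneys at all. Mettl26 had TG scores of 984, 383, 723 and 634, and its IG scores of 1992, 3100, 2364 and 2924 all lay above them. Ivl, the gene of involucrin, a protein of the cornified envelope of skin, had TG scores of 504.3, 609.6, 556 and 878 and IG scores of 1181, 491, 659 and 832. Ahnak2, a large scaffold protein, had TG scores of 338 to 1170 and IG scores of 291 to 607. Zfp365 had TG scores of 413 to 597 and IG scores of 168 to 739. Of the 12 named gained loci 9 had a peak in all IG kidneys and 2 in 3 IG kidneys, and 8 lay in genes without any control peak.

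Auts2 is the named gained locus with no IG peak. The locus lies in the last exon at chr5:131438889-131440693 and had TG scores of 589, 539, 892 and 449.8, with no peak in 4 control and 4 IG kidneys. Exon 4 of the same gene had a peak in 4 control, 3 TG and 4 IG kidneys, and exon 13 in 4, 2 and 4. Auts2 encodes a nuclear protein that acts with a Polycomb complex.

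**Figure D4:**
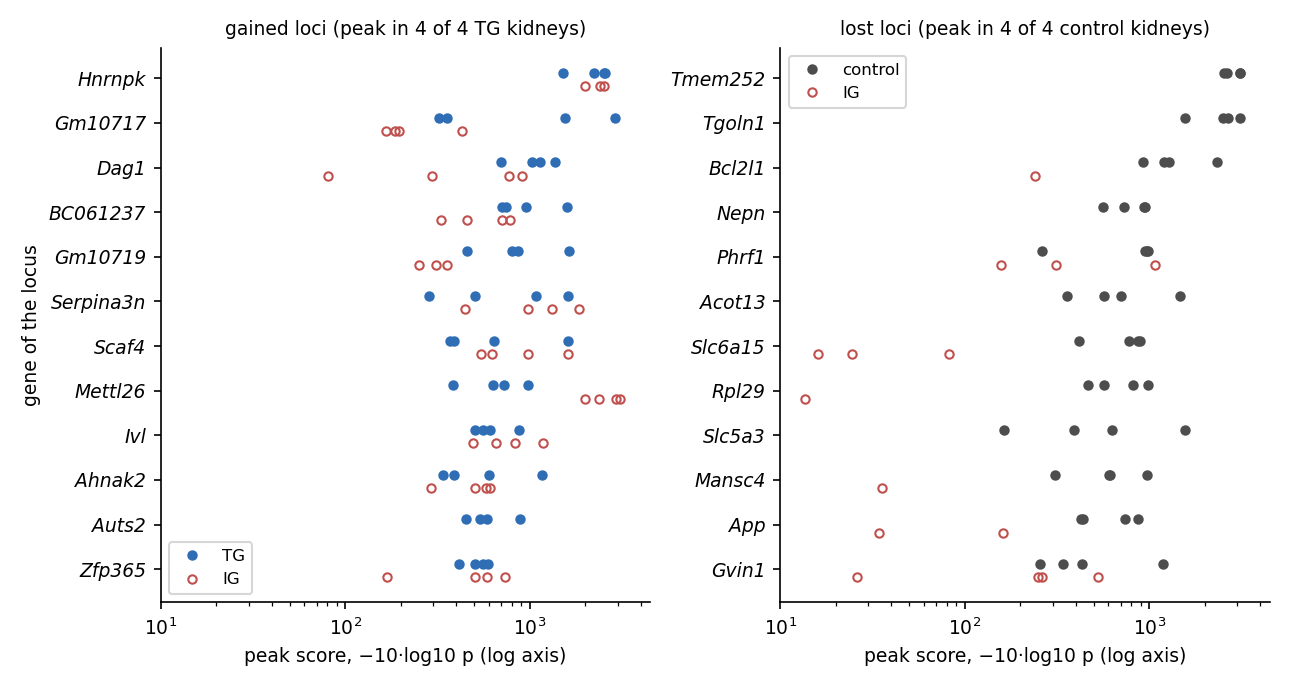
Score of each peak (x axis, log scale) at the 12 gained loci (left) and 12 lost loci (right) with the highest mean scores that were called also with equal lists. Filled points are the 4 TG or 4 control kidneys, open points are the IG kidneys with a peak, and kidneys without a peak have no point. Open points accompany 11 of the 12 gained loci, Auts2 being without one, and 7 of the 12 lost loci.

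Some gained loci lay in repeated sequence. The first 3.1 Mb of chromosome 9 held 7 gained loci in 5 genes (Gm10717, Gm10719, Gm10720, Gm11168 and Gm17535), and a cluster on chromosome 14 held 7 in 5 genes (BC061237, Gm3486, Gm3543, Gm3573 and Gm8094). The 88 bases of exon 2 of Gm10720 occurred 6 times in the chromosomes of GRCm38, and exon 2 of Gm3486 occurred 3 times. Chromosomes 9 and 14 held 11.3% and 11.9% of the gained loci, against 6.23% and 4.27% of all loci. The locus of Gm10717 had TG scores of 1559, 324, 356 and 2921 and IG scores of 196, 431, 166 and 186, and exon 4 of BC061237 had TG scores of 707, 961, 745 and 1599 and IG scores of 460, 711, 332 and 779.9. Which copy gave these reads is uncertain, and reads placed at several copies can count as several loci. Among genes with Gm or Rik names 15 of 249 had a gained locus (6.02%) and 10 a lost one (4.02%), beside 1.91% and 7.27% of all genes with a peak. With equal lists 17 had a gained and 3 a lost locus. Of the 15, 9 lie in these stretches of chromosomes 9 and 14. With only peaks scoring at least the median of 71.7 the balance turned, with 4 gained and 6 lost.

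The IG kidneys place the TvC loci beside cisplatin alone. The comparison of IG with controls shares its 4 control kidneys with TvC, so the following shares are descriptions without a test. At the 565 lost loci 272 (48.1%) had no peak in any IG kidney, 127 had a peak in 1, 119 in 2, 35 in 3 and 12 in all 4. Single IG kidneys had a peak at 24.8%, 28.0%, 24.2% and 14.7% of lost loci, below the 72.2 to 79.2% of all loci with a peak in 4 control kidneys and, by their means of 22.9% and 12.3%, above all loci with a peak in 0 TG kidneys (8.70 to 16.5%). At the 151 gained loci 84 (55.6%) had a peak in all 4 IG kidneys, 29 in 3, 15 in 2, 13 in 1 and 10 in none. Single IG kidneys had a peak at 75.5%, 77.5%, 78.1% and 77.5% of gained loci, above the 29.9 to 36.2% of loci without a control peak and below the 92.0 to 94.1% of all loci with a peak in 4 TG kidneys. Of the 1922 loci without a control peak 1187 had a peak in only 1 TG kidney. Of the 5094 loci without a TG peak 2617 had a peak in only 1 control kidney. Called loci are reproducible by rule and were longer than all loci, so these shares are not like for like.

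**Figure D5:**
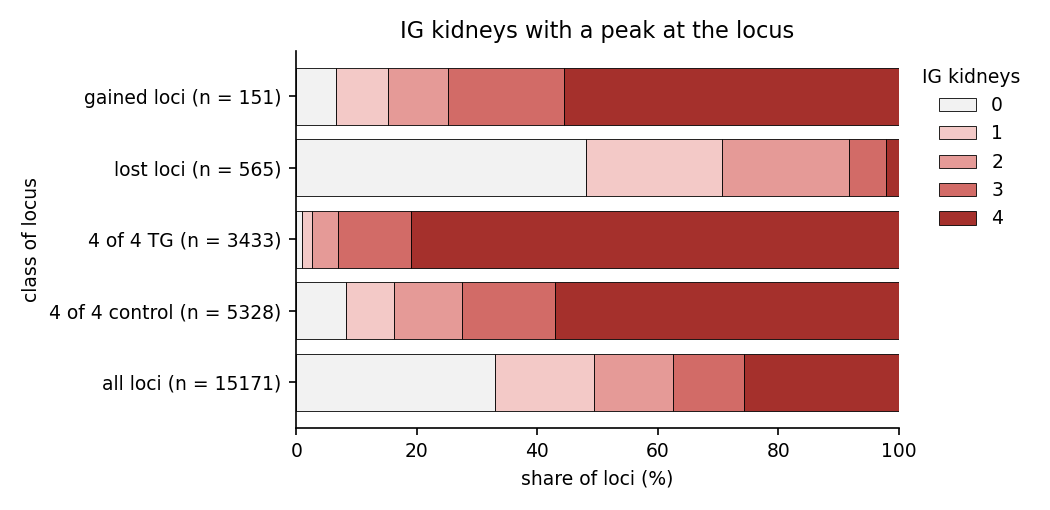
Share of loci (x axis, in percent) with a peak in 0 to 4 IG kidneys, for the 151 gained and 565 lost loci, for loci with a peak in 4 TG or 4 control kidneys, and for all 15171 loci. All 4 IG kidneys had a peak at 55.6% of gained loci, and none had a peak at 48.1% of lost loci.

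At a few loci the peaks of TG kidneys differed from both other groups, and they were chosen for naming after their values were seen. The 10 gained loci with no IG peak were 6.62% of gained loci. That share was 0.874% of all loci with a peak in 4 TG kidneys and 38.5% of loci without a control peak. The 12 lost loci with a peak in 4 IG kidneys were 2.12% of lost loci. That share was 57.1% of all loci with a peak in 4 control kidneys and 0.805% of loci without a TG peak. The 10 gained loci without an IG peak lay in Auts2, Gm3573, Anxa8, Gm2974, Ntm, Plce1, Slfn9, Gabra3, Gm3486 and Ccdc184. Apart from Auts2 their mean TG scores ran from 23.3 to 86.2, and a peak missing in IG kidneys may lie just below the threshold. The Gm3486 locus is exon 4, which is 96.2% identical to exon 4 of BC061237, where all 4 IG kidneys had a peak. Exon 2 of Gm3486 also had a peak in all 4 IG kidneys. Anxa8, a calcium-dependent membrane-binding annexin, had TG scores of 78.9, 55.6, 51.5 and 89.9. Ntm, a neuronal adhesion molecule, had 42.5, 25.02, 42.4 and 35.7. Plce1, a phospholipase C of the podocyte, had 42.8, 20.6, 34.9 and 21.02 over exon 7, and other exons of the gene had peaks in all groups. With equal lists 7 of these 10 kept the call, and Slfn9 exon 2, Gabra3 and Ccdc184 did not. Each of the 10 except Auts2 had a TG score under 71.7, the median score, and could not keep the call with only peaks at or above it. The 12 lost loci with a peak in every IG kidney lay, among others, in Gvin1, Bicral, Rnf185, Zswim4, Txlna, Spast, Atg101, Fam208b, Grik5, Neo1 and Golga3. Only 5 of the 12 kept the call with equal lists, namely Gvin1, Bicral, Rnf185, Zswim4 and Spast. Bicral, a subunit of a BAF chromatin remodelling complex, had control scores of 334, 222, 239 and 311 and IG scores of 103, 253, 48.8 and 24.9. Atg101, which takes part in starting autophagy, had control scores of 101, 103, 47.6 and 39.8 and IG scores of 86.4, 107, 71.8 and 25.9. Spast, a microtubule-severing enzyme, had control scores of 124, 74.0, 61.6 and 86.01 and IG scores of 240.5, 78.55, 65.35 and 50.03.

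Gene groups are described by counts of genes with a lost or a gained locus, beside 7.27% (lost) and 1.91% (gained) of all 7083 genes with a peak. These genes had a peak in fewer TG than control kidneys in 3405 cases, in the same number in 2497 and in more in 1181. The lists were chosen with earlier results of these data known, and the counts are descriptions without a test. Many lost counts were lower with equal lists, and values that moved stand beside most groups. Gained counts can rise with equal lists because control peaks are cut, so such a rise is not further support. A second comparison kept only peaks scoring at least the median of 71.7, called high scores here, and left 285 genes with a lost and 68 with a gained locus.

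Markers of tubular injury included 3 genes with a gained locus, of 13 with a peak (4 with equal lists, 2 with high scores), and none with a lost locus. Atf3, a transcription factor induced by stress, had TG scores of 155, 184, 146 and 297 in its last exon and IG scores of 693, 808, 333 and 896, so every IG kidney lay above every TG kidney. Sox9, a transcription factor of regenerating tubules, had TG scores of 485, 124, 112 and 108 and IG scores of 93.1, 202, 362 and 433. No control kidney had a peak in Atf3 or Sox9. Cdh6, a cadherin of the developing tubule, had TG scores of 23.3, 40.5, 16.7 and 23.05 at a gained locus in exon 2 and peaks elsewhere in all 8 kidneys. Havcr1, the gene of kidney injury molecule KIM-1, missed the call with a peak in 3 TG, 4 IG and 0 control kidneys. Krt8 was listed in 4 control, 2 TG and 2 IG kidneys, and Krt19 in 3 control kidneys and no other.

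Among p53 targets of DNA damage 2 of 16 genes had a lost locus and none a gained one. They were Plk2, a polo-like kinase, with control scores of 204, 73.5, 34.6 and 103, and Gadd45b, with 45.5, 42.65, 65 and 17.1. Neither kept the call with equal lists, where 0 of the p53 targets had a lost locus (1 with high scores). Gdf15 and Phlda3 had a peak in 3 control and no TG or IG kidneys. In the BCL2 family of apoptosis regulators Bcl2l1 was lost and Bcl2a1a gained, of 11 genes. Bcl2a1a had TG scores of 44.2, 71.9, 70.8 and 101 and a peak in 3 IG kidneys, and 2 genes of the family had a gained locus with equal lists and 0 with high scores. Of 31 DNA repair genes Msh3 had a lost locus, and Atr and Nbn a gained one. Elsewhere in Nbn 4 of 4 control kidneys had a peak. With equal lists Nbn lost the call, but 3 genes of the group had a gained locus. With high scores 0 of the group had a lost and 0 a gained locus. Atr, the kinase that senses stalled replication, had TG scores of 59.2, 45.2, 33.9 and 41.4, a peak in 3 IG kidneys and none in control kidneys.

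Among AP-1 and immediate early genes Klf4, Fosl2, Zfp36 and Ier2 had a lost and Atf3 and Egr2 a gained locus, of 21. In Klf4 3 TG kidneys had a peak elsewhere in the gene. Zfp36, which encodes a protein that speeds the decay of cytokine mRNAs, had control scores of 439, 386, 164 and 112 and no TG or IG peak. Fosl2 had control scores of 197, 189, 93.5 and 148 and 1 IG peak. With equal lists 3 of the 4 lost loci kept the call, Ier2 being the exception, and both gained loci did. With high scores 4 genes of the group had a lost and 1 a gained locus. Egr2 had TG scores of 62.8, 16.4, 23.02 and 591, and TG kidney 4 lay far above the other 3. Among genes of cytokine and NF-kappaB signalling 2 of 27 had a lost locus, Csf1 and Il4ra, and 0 a gained one. In Csf1 2 TG kidneys had a peak elsewhere in the gene. In 23 of the 27 fewer TG than control kidneys had a peak, in 4 as many and in 0 more. With equal lists Il4ra kept the call and Csf1 did not, and with high scores 1 gene of the group had a lost locus. Il4ra, the interleukin-4 receptor, had control scores of 189, 95.2, 205 and 219.5 and no TG or IG peak. Acute phase, complement and coagulation genes had 1 gained (Serpina3n) and 0 lost of 14, and interferon-inducible GTPases 1 lost (Gvin1) of 17.

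The m6A machinery itself carried 2 lost loci in 17 genes and no gained one. Ythdf1, a reader, had control scores of 73.8, 97.9, 72.6 and 361 over exon 5, and Alkbh5, the demethylase, had 24.6, 18.7, 14.5 and 64.3 over exon 2. Neither gene had a peak in any TG or IG kidney. With equal lists Ythdf1 kept the call and Alkbh5 did not, and with high scores 3 genes of the group had a lost locus. Genes of the writer complex (Mettl14, Wtap, Virma, Zc3h13, Cbll1, Rbm15 and Rbm15b) had a peak in all 4 control and all 4 TG kidneys, and 9 of the 17 genes had one in all 8 kidneys.

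Transcription and chromatin regulators followed. Of 13 Kruppel-like factors Klf1, Klf3, Klf4 and Klf12 had a lost locus (30.8%) and none a gained one, and with equal lists Klf4 alone kept the call. With high scores 0 of these factors had a lost locus. At its lost locus Klf4 had control scores of 61.3, 306, 327 and 279 and IG scores of 47.0 and 62.05 in kidneys 2 and 3. Counted over the whole gene, 3 TG, 4 control and 4 IG kidneys had a peak in Klf4. Of 22 lysine demethylases and methyltransferases Kdm6b, Kdm2b and Kmt2e had a lost locus, and Kmt2e did not keep it with equal lists, where 2 genes of the group had a lost and 2 a gained locus (3 and 0 with high scores). Kdm6b, a histone demethylase that removes a repressive mark, had control scores of 240, 377, 405 and 572 over exon 11 and no TG or IG peak. Zinc finger (Zfp) genes had 18 lost and 4 gained of 293, coiled-coil (Ccdc) genes 6 and 3 of 62, and splicing factors and RNA-binding proteins 1 (Taf15) and 1 (Hnrnpk) of 43. Circadian clock genes had 1 lost of 11, Rora, in which 2 TG kidneys had a peak elsewhere in the gene. With equal lists the Zfp genes had 8 lost and 5 gained, the Ccdc genes 1 and 3, the splicing and RNA-binding group 0 and 2 and the clock genes 0 lost. With high scores these groups had 16 and 1, 4 and 1, 1 and 2, and 0 lost, in the same order.

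Transporters and enzymes gave 8 lost and 4 gained of 111 solute carrier genes. The lost ones were Slc1a2, Slc30a4, Slc35e2, Slc39a10, Slc44a2, Slc51a, Slc5a3 and Slc6a15. The gained ones were Slc16a9, Slc1a3, Slc25a24 and Slc38a1, each with a peak in at least 3 IG kidneys. Slc1a3, a glutamate transporter, had TG scores of 68.4, 35.1, 140 and 58.0. Cytochrome P450 enzymes had 1 lost of 14 (Cyp2j7), ubiquitin-specific peptidases 2 of 32, TRIM and RNF ubiquitin ligases 1 lost and 1 gained of 66, dual-specificity phosphatases 1 lost of 10 (Dusp7), and Tmem genes 3 lost of 62. Genes of fatty acid oxidation (13), the NRF2 pathway (8) and the handling of cisplatin (6) had no called locus, apart from 1 lost in the NRF2 pathway with high scores. Nfe2l2, the gene of NRF2, had a peak in 4 control, 0 TG and 0 IG kidneys when its loci were counted together. Extracellular matrix and integrin genes had 2 lost of 27, Itga6 and Thbs1. With equal lists solute carriers had 4 lost and 6 gained, TRIM and RNF ligases 1 and 2, dual-specificity phosphatases 1 and 1 and Tmem genes 2 lost. The P450 and matrix groups then had 0 lost, and the ubiquitin-specific peptidases 0 lost and 1 gained. With high scores solute carriers had 5 lost and 0 gained, TRIM and RNF ligases 2 and 0, dual-specificity phosphatases 0 and 0, and Tmem genes 2 lost. The P450 group then had 1 lost, the ubiquitin-specific peptidases 2 lost and 0 gained, and the matrix group 0 lost.

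Markers of kidney and other cell types were counted by whether they had a peak. Of 20 proximal tubule markers 5 had a peak in any of the 8 kidneys, and Slc34a1, Lrp2 and Slc5a2 had none. Of all 21866 protein-coding genes 7083 had a peak, a share near that of these markers. Most proximal tubule markers thus cannot be followed by m6A peaks here, and their count is not particular to that cell type. For other cell types the numbers were 11 of 18 for the thick limb and distal tubule, 7 of 14 for the collecting duct, 9 of 10 for podocytes, 6 of 11 for endothelium, 9 of 17 for immune cells and 4 of 10 for hepatocytes. Of all these markers 5 had a called locus. Plvap, the protein of endothelial fenestrae, had control scores of 72.7, 1205, 547 and 176 and no TG or IG peak. Trpm6, the magnesium channel of the distal tubule, had control scores of 93.2, 15.4, 14.9 and 37.7 and 2 IG peaks. Itgam, the myeloid integrin CD11b, had TG scores of 40.9, 23.4, 14.4 and 17.5, a peak in 4 IG kidneys anywhere in the gene and none in control kidneys. Trpm6 and Itgam did not keep the call with equal lists, and with high scores 1 endothelial marker had a lost locus and 0 markers of the other cell types had a called one. Pzp, a plasma protease inhibitor made by the liver, had 2 lost loci and Plce1 a gained one. The part of a changed cell composition in the called loci was not tested.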

How the data were processed

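m6A peak lists of 12 mouse kidneys were used, 8 of them in the comparison of TG with control kidneys. Groups came from the sample labels. The authors trimmed reads with Cutadapt 1.9.3, aligned them to mm10 with Hisat2 2.0.4, called peaks with MACS and kept those over mRNA exons. Each deposited score is a p-value put on a negative log10 scale and multiplied by 10. The MACS threshold and the use of the input libraries in peak calling are not given in the sources used here, and the input samples were not analysed here. No read counts were used, so precision rests on 4 kidneys per group.

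Peaks overlapping by at least 1 bp were joined and assigned to protein-coding genes of GENCODE release M21 on the strand in the list. Codon segments spanned 200 nt to each side. Sequences were read with samtools 1.23.1 and pysam 0.24.0, tests run with scipy 1.17.1 and numpy 2.4.6 in Python 3.11.15, and figures drawn with matplotlib 3.10.9. Exact permutation tests (70 arrangements) compared kidneys, and Fisher's exact test with Benjamini-Hochberg adjustment compared loci and genes. The counting was tested on simulated data. The permutation p-values set the observed grouping of these kidneys against all arrangements and do not measure the size of a spread. Fisher's p-values use only the number of kidneys with a peak.

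The comparison and the 33 gene lists were chosen with earlier results of these data known. The 12 loci named per direction had the highest mean score among calls kept with equal lists, 1 per gene and none on chromosome 18. Genes with several called loci, genes called in both directions and called list members were also named. Alternatives changed list length, score threshold, joining, annotation, codon segments, kidneys and pairing.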

Additional observations from a re-analysis of the deposited data

Results flagged for a closer look

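Groups of 4 kidneys were checked for peaks, genes, segment shares, IG shares and the scores of the called loci in the genes named for score or for several loci and in those whose scores are printed. Of 130 groups 9 held a kidney far from the other 3. For normally distributed values the cut-off sets apart about 1 in 20 groups by chance. The scores are skewed and the groups share kidneys, so the chance rate here is unknown. Among lost loci, control kidney 2 had a score of 262.68 at Phrf1 exon 14 against 943.69 to 984.83 in the other control kidneys. Control kidney 4 had 360.87 at Ythdf1 exon 5 against 72.58 to 97.89, and 62.13 at Msh3 exon 20 against 14 to 20.85. Control kidney 1 had 127.14 at Cars exon 21 against 26.91 to 37.99. Among gained loci, TG kidney 1 had 485.27 at Sox9 exon 3 against 107.56 to 124.24, and TG kidney 4 had 590.63 at Egr2 exon 2 against 16.38 to 62.83. Among IG scores, kidney 2 had 430.9 at the Gm10717 locus against 165.56 to 195.65. IG kidney 1 had 175.27 at Cdh6 exon 2 against 13.87 to 35.2, and 240.47 at Spast exon 17 against 50.03 to 78.55.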

How the results depend on the processing

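Scores, without read counts, limit these results, and a missing peak may lie just below the threshold. The balance of calls turned from mostly lost (78.9%) to mostly gained (54.7%) with equal lists, where there were 202 lost and 244 gained loci (in 190 and 222 genes), and 133 lost and 162 gained whole genes. Equal lists cut more peaks from control than from TG kidneys, which favours gained calls. With peaks scoring at least 71.7, the median, there were 306 and 76 loci (285 and 68 genes), and 201 and 50 whole genes. A difference of at least 3 of 4 kidneys gave 1811 lost and 429 gained loci. Other ways of joining gave 562 to 566 lost and 151 to 157 gained loci. With equal lists the difference in genes per kidney was -89, and the start codon share differed by 0.834 percentage points in place of -0.317. With codon segments of 100 nt it differed by 0.00253 and the stop codon share by 0.0295. None of these shares passed a test. The share of lost loci whose gene kept another peak was 12.4% with equal lists and 20% with scores at or above the median, and the mean share of gained loci with a peak in an IG kidney was 72.1% and 79.9%.

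Leaving out 1 kidney at a time gave 638 to 781 lost and 167 to 212 gained loci, in 577 to 701 and 150 to 186 genes, and 349 to 428 lost and 111 to 134 gained whole genes. A call then has to hold in 1 kidney less, so higher counts follow from the rule and cannot show how far calls rest on 1 kidney. The difference in peaks ran from -2712.83 to -2363.5 and that in genes from -1207.25 to -1043.58, each at an exact p of 0.0571, the smallest that 3 against 4 kidneys allow. The stop codon difference ran from -0.523 to 0.0801. The share of lost loci whose gene kept another peak ran from 24.6% to 28.8%, the IG share of gained loci from 69.5% to 78.1% and that of lost loci from 20.8% to 29%. These shares without 1 kidney, and the RefSeq annotation for whole genes (310 lost, 100 gained), were added after the data were seen.

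The replicate numbers did not pair the kidneys: deviations of same-numbered kidneys correlated at -0.00130 to 0.00675. With the replicate block the smallest exact p is 0.125, so 0 lost and 0 gained loci could pass, and the differences of -2572.5 peaks and -1118.25 genes had an exact p of 0.125. Of 161 named loci, 95 kept their call with equal lists and 52 with scores at or above the median. The 12 loci per direction with the highest mean scores were chosen among calls kept with equal lists. Both settings only remove peaks, so no call could turn to the opposite direction.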
